A study of Canis lupus familiaris with 10 samples.

Results

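The genes of myelin and of the oligodendrocyte, the cell that makes myelin in the central nervous system, were examined in neural retina of dogs with primary glaucoma and of healthy dogs. The list held 9 genes, namely MAL, MBP, MOBP, MAG, MOG, CNP, CLDN11, SOX10 and ERMN. A probe set, the group of short probes on an Affymetrix array that together measure a transcript, was taken where its annotation gave exactly 1 gene symbol and that symbol was one of the 9. This gave 14 probe sets for 8 genes, of 42924 probe sets and 15115 gene symbols on the array. MOBP had no probe set under its own symbol and was not analysed here. The genes were chosen by their known place in myelin and with the glaucoma against healthy differences of these retinas in view, MAL's among them, so the differences of the members between the groups are given as a description and without a test.

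The glaucoma group held 5 dogs, 2 Shiba Inus (labelled 5 and 14 years old), 2 Basset Hounds (5 and 7 years) and 1 Dalmatian (9 years). They were patients of a veterinary clinic with spontaneous, closed-angle disease, and all had been given drops that lower intraocular pressure. The ages are those of the sample labels, and the study's own list of dogs gives other ages for the older Shiba Inu and the Dalmatian, which bears on every result with age as a covariate. The healthy group held 5 Beagles, each 4 years old, with no eye disease. One array was hybridised per dog, and no array of optic nerve, brain or another myelinated tissue was among the samples. No breed occurred in both groups and every dog with glaucoma was older than the healthy dogs. The glaucomatous eyes were enucleated from patients, and the healthy dogs had been euthanized for other reasons. Disease, breed, age, treatment and the way of collection therefore cannot be told apart. Replicates were separate animals.

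Myelin is a stack of glial membrane wrapped around axons, and in the central nervous system it is laid down by oligodendrocytes. Ganglion cell axons run without myelin across the retina of most mammals and become myelinated in the optic nerve. In the dog, myelin reaches forward into the optic nerve head, so that the edge of the optic disc, next to the neural retina, holds myelinated fibres. The membrane is compacted from inside by MBP and from outside by other proteins, is sealed by tight junctions and is anchored to the axon by adhesion molecules. Several of these genes also have uses outside myelin, MAL in epithelial cells and T cells and SOX10 in Schwann cells and melanocytes.

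Values are log2 of the intensity that the authors obtained with RMA, an algorithm that subtracts background, brings the arrays to one distribution and summarises each probe set. A probe set counted as expressed when its log2 value was above 7 in at least 2 of the 10 samples, as defined in the methods, and 18416 probe sets met this minimum. The groups were compared by limma, which fits a linear model per probe set and moderates its variance, at an adjusted p (Benjamini-Hochberg) under 0.05. Levels of different probe sets depend on their probes and were not compared with each other. Median intensity was between 77.1 and 80.7 per array. Of 8 genes that define photoreceptors and other cells of the neural retina, 6 had a probe set, and 5 of these were above the minimum in all 10 retinas. Over all expressed probe sets, 1396 (7.58%) were higher in glaucoma and 1732 (9.4%) were lower. Every glaucomatous retina lay above every healthy retina in 6.82% of them and below in 8.03%.

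A pair of retinas stood apart in genes of other cell types. Among the probe sets of retinal pigment epithelium genes (the pigmented layer behind the photoreceptors), the younger Shiba Inu (5 years) was the highest of its group in 13 of 13, and healthy Beagle 4 was the highest of its group in 10 of 13. Both dogs were the highest of their groups at once in 10 of these 13 probe sets, in 10 of 11 for melanocyte genes and in 5 of 6 for epithelial genes, against 12.7% of all expressed probe sets. RPE65, the isomerase of the visual cycle, had a log2 intensity of 13.37 in the younger Shiba Inu and 8.76 to 11.95 in the other dogs with glaucoma, against 13.02 in healthy Beagle 4 and 6.38 to 8.57 in the other healthy dogs. RPE65 did not pass the limma test over all dogs (difference 2.87, SE 1.26, adjusted p = 0.139) but was higher in glaucoma without these 2 dogs (3.50, SE 0.70, adjusted p = 0.0108). Of the 13 pigment epithelium probe sets 2 were higher in glaucoma, both of SERPINF1, a secreted growth inhibitor. Of the 11 melanocyte probe sets 1 was higher, and the share over all expressed probe sets was 7.58%. It was that of MITF, the lineage factor of pigment cells, which lost its call when any 1 healthy dog was left out (adjusted p up to 0.296 over the alternatives). Results below that rest on these 2 dogs are also given without them.

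Of the 8 genes, MAL was higher in the glaucomatous retinas by a wide margin, ERMN was high in a single glaucomatous retina, and the other 6 had overlapping groups with small differences. Of the 14 probe sets, 5 were expressed (1 each for MAL, MAG, CLDN11, SOX10 and ERMN), and all probe sets of MBP, MOG and CNP and 3 of the 4 for MAG were not. In the fit of the whole array, MAL was among the 7.58% of expressed probe sets counted as higher in glaucoma, 1 of the 5 expressed members. The list was drawn up with this comparison in view, so that count is a description and no test of the members.

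**Figure D1:**
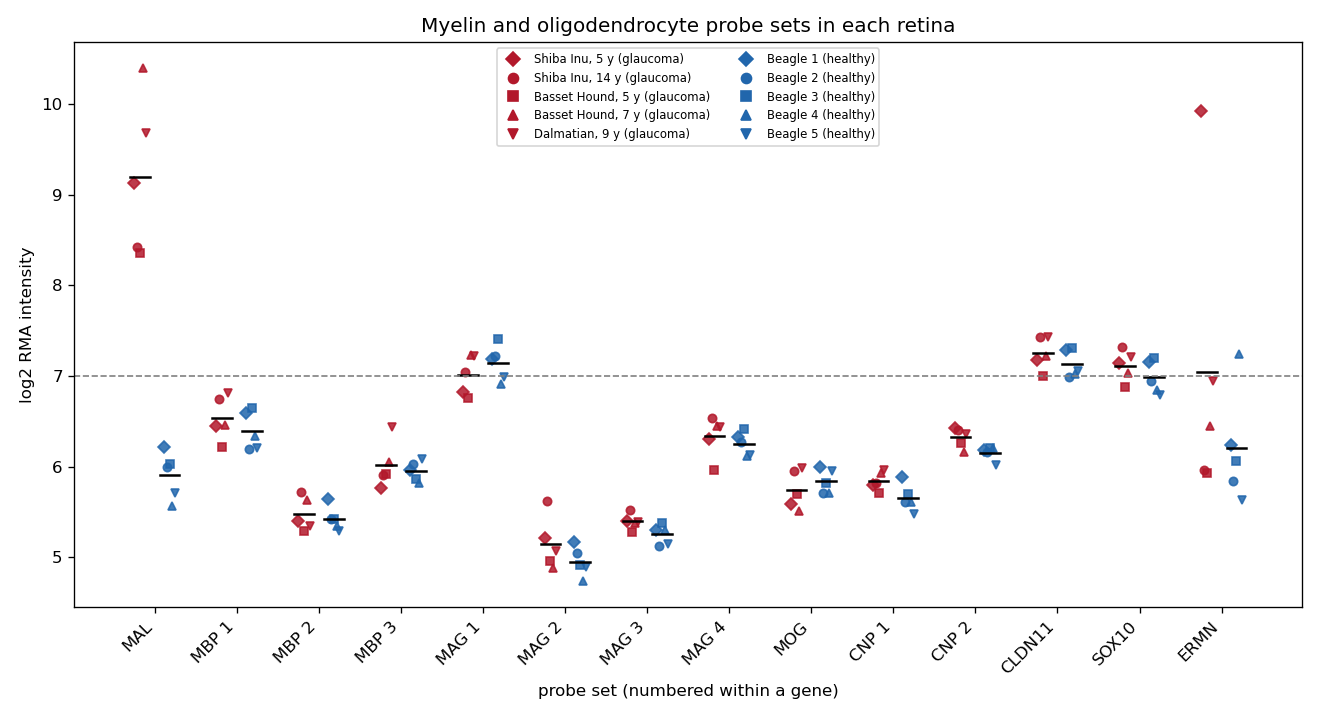
Log2 RMA intensity of the 14 probe sets of the myelin and oligodendrocyte genes in each retina, with glaucoma (red) left of healthy (blue), 1 marker shape per dog, short lines at the group means and a dashed line at the minimum of 7. Only the groups of MAL are apart (8.36 to 10.40 in glaucoma against 5.57 to 6.22 in healthy retinas), and in ERMN a single glaucomatous retina lies at 9.93.

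MAL encodes a small proteolipid of compact myelin that also carries cargo to the apical membrane of epithelial cells and is found in T cells. Its probe set had log2 intensities of 9.13 and 8.43 in the 5- and 14-year-old Shiba Inus, 8.36 and 10.40 in the 5- and 7-year-old Basset Hounds and 9.68 in the Dalmatian, against 6.22, 5.99, 6.03, 5.57 and 5.71 in healthy Beagles 1 to 5. All 5 glaucomatous retinas were above the minimum and all 5 healthy retinas below it, and a gap of 2.14 separated the lowest glaucomatous from the highest healthy retina. The mean was 9.20 ± 0.86 in glaucoma and 5.90 ± 0.26 in healthy retinas (SD, n = 5 each), a difference of 3.30 (SE 0.35) or 9.83-fold. Fewer cells of a type and less RNA per cell cannot be told apart in such tissue samples, and neither can their opposites.

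All healthy dogs were Beagles, so no omission can separate disease from that breed. Within that limit, the difference of MAL did not rest on 1 dog or on 1 breed of the glaucoma group. It was 3.58 (SE 0.38) without the Shiba Inus, 3.18 (SE 0.27) without the Basset Hounds and 3.23 (SE 0.41) without the 5-year-old Shiba Inu and healthy Beagle 4. Leaving out each dog in turn gave 2.997 to 3.51. MAL rested on this 1 probe set, whose suffix (_s_at) marks probes that can be shared by several similar transcripts.

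The other genes of the MAL family did not share this size of difference. Of 10 MAL and CMTM family genes with 16 probe sets, 8 probe sets were expressed. In glaucoma 1 of the 8 was higher, against 7.58% of all expressed probe sets. It was that of CMTM7, a MARVEL-domain protein related to MAL (0.90, SE 0.17, adjusted p = 0.00578 from limma). No probe set of the family was lower (0 also at an unadjusted p under 0.05). MAL2 and MALL, the closest relatives by name, were below the minimum in all 10 retinas, at 5.47 to 5.71 and 5.78 to 6.56 in glaucoma and 5.19 to 5.45 and 5.58 to 5.91 in healthy retinas. CMTM5, a family member enriched in oligodendrocytes, had a difference of 0.15 (SE 0.13, adjusted p = 0.449) on its expressed probe set. Another CMTM5 probe set, below the minimum, differed by -0.20 (SE 0.11).

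Among the proteins of the compact sheath, MBP, the basic protein that holds the cytoplasmic faces of the membrane together, was below the minimum in every retina on its 3 probe sets (5.29 to 6.81 in glaucoma and 5.29 to 6.65 in healthy retinas). The brightest of them had log2 intensities of 6.45, 6.74, 6.22, 6.46 and 6.81 in glaucomatous retinas 1 to 5 (the dogs in the order given for MAL) and 6.59, 6.19, 6.65, 6.33 and 6.21 in healthy retinas 1 to 5. The groups overlapped, with a difference of 0.14 (SE 0.14), and the other 2 probe sets differed by 0.06 (SE 0.11) and 0.06 (SE 0.12).

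CNP, the cyclic nucleotide phosphodiesterase that keeps cytoplasmic channels open within the sheath, was below the minimum on both probe sets. It lay between 5.71 and 6.43 in glaucoma and between 5.48 and 6.21 in healthy retinas, with differences of 0.19 (SE 0.09) and 0.17 (SE 0.08) and overlapping groups.

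Of the proteins on the surface of the sheath, MOG, a glycoprotein of the outermost lamella, was below the minimum on its probe set (5.51 to 5.98 in glaucoma and 5.71 to 5.99 in healthy retinas, difference -0.09, SE 0.11). MAG, the adhesion molecule of the innermost lamella that faces the axon, had 4 probe sets. The expressed one had values of 6.82, 7.04, 6.76, 7.23 and 7.22 in glaucomatous retinas 1 to 5 and 7.19, 7.22, 7.41, 6.91 and 6.99 in healthy retinas 1 to 5. These values straddled the minimum in both groups, and the difference was -0.13 (SE 0.13). The other 3 probe sets of MAG were below the minimum and differed by 0.09 to 0.20. The sign thus varied among the probe sets of this gene, and the groups overlapped on each of them.

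CLDN11, which forms the tight junctions between the lamellae, had values of 7.17, 7.43, 7.00, 7.22 and 7.43 in glaucomatous retinas 1 to 5 and 7.28, 6.99, 7.31, 7.03 and 7.05 in healthy retinas 1 to 5 (difference 0.12, SE 0.12). SOX10, the transcription factor of the oligodendrocyte lineage, had values of 7.14, 7.32, 6.88, 7.03 and 7.20 in glaucomatous retinas and 7.15, 6.95, 7.20, 6.84 and 6.79 in healthy retinas (difference 0.13, SE 0.12). Both genes lay close to the minimum in both groups, and their groups overlapped.

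Across the 12 probe sets other than those of MAL and ERMN, log2 values lay between 4.73 and 7.43 and differences between -0.13 and 0.20, with a median of 0.12. In none of the 12 were the groups apart (0 of 12), against 6.82% of all expressed probe sets with glaucoma above and 8.03% with glaucoma below. With shares this small, and 9 of the 12 below the minimum, that count says little about these genes. The median difference over all expressed probe sets was -0.02. Whether the probe sets below the minimum respond to canine myelin transcripts could not be checked without a myelinated tissue. Their values are therefore not measured levels of these transcripts and set no bound on them.

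ERMN encodes ermin, a protein of the oligodendrocyte cytoskeleton found at the outer edge of the sheath. Its probe set had a log2 intensity of 9.93 in the younger Shiba Inu and of 5.96, 5.93, 6.45 and 6.94 in the 14-year-old Shiba Inu, the 5- and 7-year-old Basset Hounds and the Dalmatian, against 6.24, 5.84, 6.07, 7.24 and 5.63 in healthy Beagles 1 to 5. Only the 5-year-old Shiba Inu and healthy Beagle 4 were above the minimum, and the groups overlapped. The mean was 7.04 ± 1.67 in glaucoma and 6.20 ± 0.63 in healthy retinas (SD, n = 5 each), a difference of 0.84 (SE 0.68) that was 0.12 without the 5-year-old Shiba Inu and 0.38 (SE 0.23) without both dogs.

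The dogs with a high ERMN signal were the same 2 in which pigment epithelium and pigment cell genes were high. BEST1, a chloride channel of the pigment epithelium, was at 11.44 in the younger Shiba Inu and at 6.13 to 8.06 in the other glaucomatous retinas, against 9.44 in healthy Beagle 4 and 6.03 to 6.35 in the other healthy retinas. TYR, the tyrosinase of pigment synthesis, was at 10.39 and 5.41 to 6.20 in the same sets of glaucomatous retinas, against 8.65 and 5.30 to 5.69 in the healthy ones. After subtraction of the group means, ERMN correlated over the 10 dogs with the mean of the 13 expressed pigment epithelium probe sets at r = 0.88 (0.59 without the 2 dogs) and with that of the 11 melanocyte probe sets at r = 0.94 (0.82 without them), as a description of points that share RNA and array. For MAL these correlations were 0.00 and -0.05 over the 10 dogs, and 0.55 and 0.53 without the 2 dogs. ERMN also correlated with the means of other lists, at r = 0.95 with Schwann cell (0.71 without the 2 dogs), 0.85 with epithelial (-0.04), 0.84 with astrocyte (0.28) and 0.79 with fibroblast and sheath probe sets (0.69), so the likeness was not particular to the pigment lists. With other myelin and mature oligodendrocyte genes ERMN had r = 0.64 (0.12 without the 2 dogs), and with oligodendrocyte lineage genes 0.64 (-0.22). For MAL these values were 0.07 (0.27) and -0.24 (-0.24). The part of any of these cells in the ERMN or MAL signal was not tested.

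**Figure D2:**
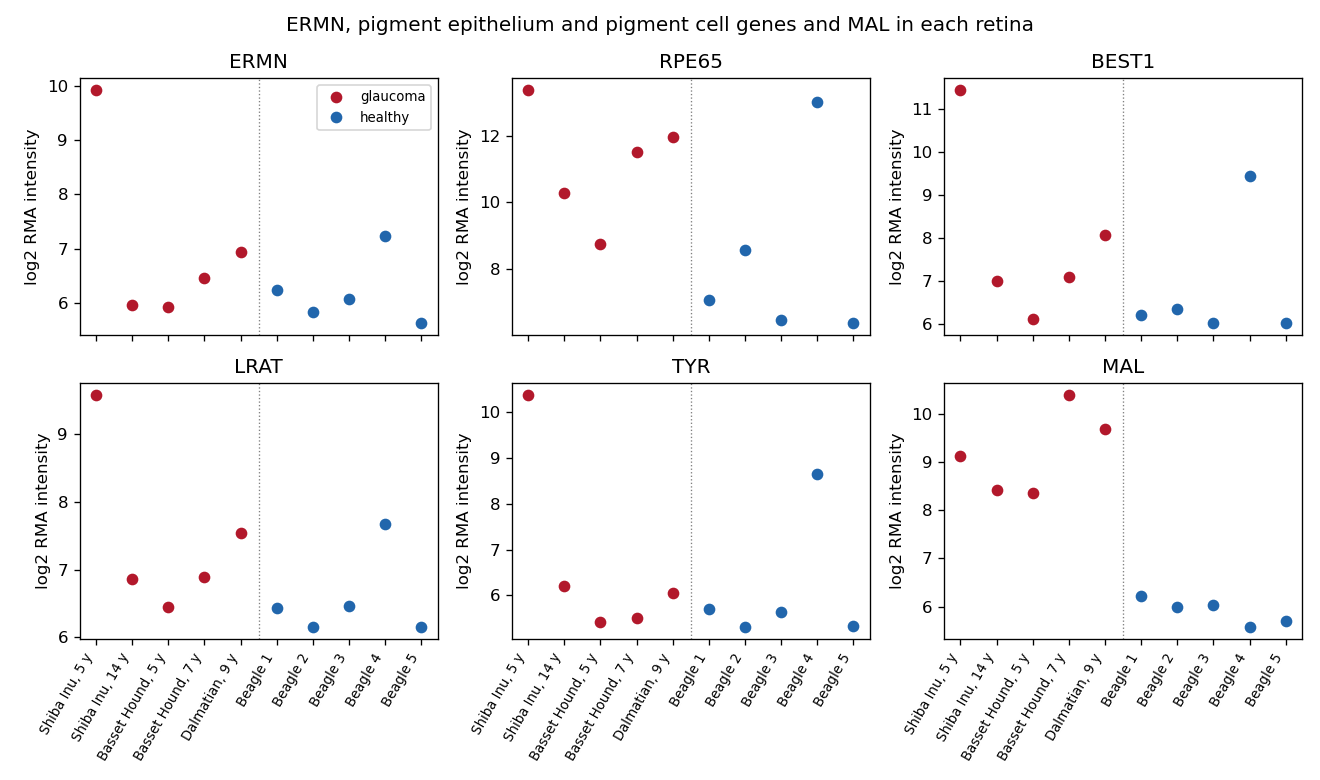
Log2 RMA intensity of ERMN, of the pigment epithelium genes RPE65, BEST1 and LRAT, of the pigment cell gene TYR and of MAL in each of the 5 glaucomatous (red, left) and 5 healthy retinas (blue, right), 1 point per dog. ERMN is highest in the younger Shiba Inu (9.93) and in healthy Beagle 4 (7.24), as are RPE65, BEST1, LRAT and TYR, and MAL lies at 8.36 to 10.40 in glaucomatous and 5.57 to 6.22 in healthy retinas.

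The genes whose pattern within the groups was most like that of ERMN, by Pearson's r over the 10 dogs after subtraction of group means, were PCYOX1, APOC3, PTGES, GNG11, LRAT, PTPRF, PLTP, CA12, PDLIM1 and CPQ (r = 0.97 to 0.99). LRAT, which makes retinyl esters in the visual cycle, was at 9.58 in the younger Shiba Inu and 6.45 to 7.54 in the other glaucomatous retinas, against 7.67 in healthy Beagle 4 and 6.15 to 6.46 in the others. In all 10 genes, as in ERMN, the 5-year-old Shiba Inu was the highest glaucomatous retina. This follows from picking them by likeness to ERMN and is no separate result.

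For MAL the 10 most alike genes were PMPCA, LOC607467, CDH13, CYBB, ARL6IP5, PACC1, CYFIP2, LMO2, TREM2 and GOSR2 (r = 0.84 to 0.92). Among them, 3 were higher in glaucoma in the limma test, namely CYBB, the catalytic subunit of the phagocyte oxidase (1.81, SE 0.35, adjusted p = 0.00561), TREM2, a receptor of microglia (1.32, SE 0.20, adjusted p = 0.00152), and CDH13, a cadherin anchored to the membrane by lipid (0.87, SE 0.17, adjusted p = 0.00554). CYBB had values of 8.63, 7.50, 7.22, 9.06 and 8.78 in glaucomatous retinas 1 to 5. The 7-year-old Basset Hound was thus the highest and the 14-year-old Shiba Inu and 5-year-old Basset Hound the lowest in both MAL and CYBB. CYBB was picked by its likeness to MAL, so this shared order is no separate result. For the single expressed probe set of MAG, SBF1, LAPTM5 and CYP21A2 were the most alike (r = 0.96, 0.95 and 0.95), although MAG varied little around the minimum.

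The wider set of myelin and mature oligodendrocyte genes held few differences. It listed 48 symbols, of which 38 had a probe set (75 in all), and 24 probe sets of 14 genes were expressed. Of the 24, 3 were higher in glaucoma (12.5%, against 7.58% of all expressed probe sets) and none was lower in limma (0 of 24, also at an unadjusted p under 0.05), and the median difference was 0.09. The exact rank sum test, which cannot give an adjusted p under 0.0534 here, called 0 in either direction. All 3 were probe sets of GSN, gelsolin, an actin-severing protein found in many cell types besides oligodendrocytes.

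GSN had log2 intensities of 8.15, 7.97, 6.77, 7.81 and 7.79 in glaucomatous retinas 1 to 5 on the probe set with the smallest adjusted p, against 6.51 to 6.74 in healthy retinas, with no overlap (difference 1.08, SE 0.22, adjusted p = 0.00778 from limma). On this probe set the lowest glaucomatous retina (6.77) lay just above the highest healthy one (6.74). The other 2 probe sets differed by 0.72 (SE 0.18, adjusted p = 0.0214 from limma) and 1.01 (SE 0.24, adjusted p = 0.0162), and their groups overlapped. The groups were thus apart on 1 of the 24 expressed probe sets of this list, against 6.82% of all expressed probe sets with glaucoma above. With age as a covariate, or with the 3' to 5' ratio of 1 family of control probe sets as one, GSN did not pass the limma threshold. The next genes by adjusted p did not pass it. CERS2, which makes very long chain ceramides, differed by 0.89 (SE 0.30, adjusted p = 0.0662), QKI, an RNA-binding protein of myelinating glia, by 0.65 (SE 0.26, adjusted p = 0.104), and ENPP2, autotaxin, by 1.17 (SE 0.45, adjusted p = 0.0985). CERS2 and QKI passed with age as a covariate (adjusted p = 0.0275 and 0.0339) and without the 14-year-old Shiba Inu (0.0263 and 0.0415), and CERS2 also without both Shiba Inus (0.0199) and with the 3' to 5' ratio over 4 control pairs (0.0474). ENPP2 was highest in the 5-year-old Shiba Inu and healthy Beagle 4, and without these 2 dogs its 3 probe sets were higher in glaucoma (0.95 to 1.08, the largest adjusted p = 0.028).

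**Figure D3:**
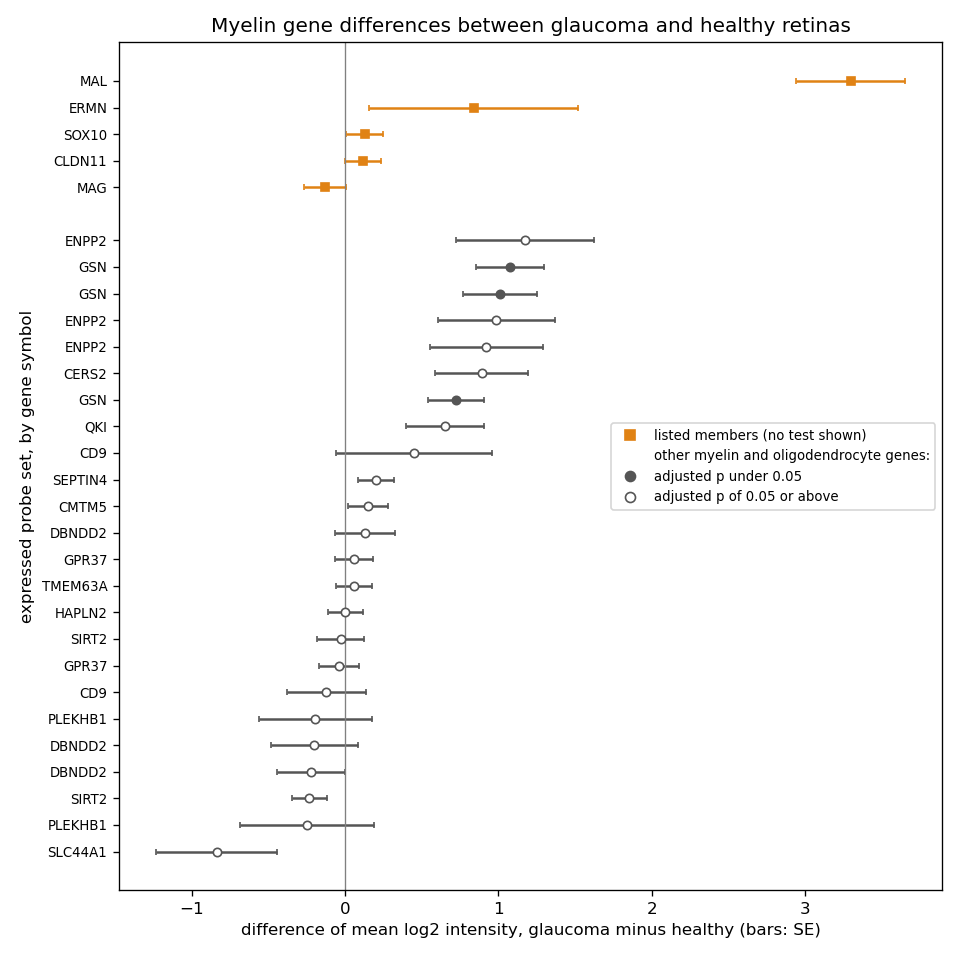
Difference of mean log2 intensity, glaucoma minus healthy, with its SE, for the 5 expressed probe sets of the listed genes (orange squares, above, with no test shown) and the 24 of other myelin and oligodendrocyte genes (grey circles, below), filled where the limma adjusted p is under 0.05. MAL lies at 3.30, the 3 filled grey points are GSN (0.72 to 1.08), and the remaining grey points have adjusted p values of 0.05 or above.

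Below the minimum were 51 of the 75 probe sets of this wider set, among them those of OPALIN, UGT8 and MYRF. OPALIN, a transmembrane protein of the sheath, lay between 3.82 and 6.03 in glaucoma and between 3.92 and 6.06 in healthy retinas on 2 probe sets, UGT8, which makes galactocerebroside, between 4.63 and 4.90 and between 4.71 and 4.88, and MYRF, the factor that switches on myelin genes, between 4.82 and 6.78 and between 4.82 and 6.78. KLK6, a secreted protease of oligodendrocytes and other cells, and ZNF488, a transcription factor of the lineage, were picked here after their values were seen, as the genes of this set below the minimum that passed limma in a fit without it. The 2 KLK6 probe sets lay between 5.38 and 6.69 and between 6.26 and 7.14 in glaucomatous retinas and between 4.86 and 5.18 and between 5.81 and 6.08 in healthy retinas, with no overlap on either. The differences were 0.93 (SE 0.21) and 0.61 (SE 0.15), with adjusted p = 0.0207 and 0.0304. ZNF488 was lower, at 5.77 to 6.31 in glaucomatous and 6.27 to 6.83 in healthy retinas (-0.54, SE 0.12, adjusted p = 0.0212), and its groups overlapped.

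Of 6 expressed probe sets of oligodendrocyte precursor and lineage genes, 1 was higher in glaucoma, against 7.58% of all expressed probe sets. It was that of PDGFRA, the growth factor receptor of precursors that is also present on fibroblasts and, in rodent retina, on astrocytes. It was at 8.03, 8.12, 8.50, 8.36 and 9.01 in glaucomatous retinas 1 to 5, against 6.59 to 7.76 in healthy retinas (difference 1.08, SE 0.25, adjusted p = 0.014), and did not pass the test with age as a covariate. OLIG1 and OLIG2, which define the lineage, had no probe set under their own symbols. Of 5 expressed probe sets of Schwann cell genes, the glia that make peripheral myelin, 1 was higher, against the same 7.58%. It was that of GLDN, gliomedin of peripheral nodes (1.55, SE 0.29, adjusted p = 0.00506), while PMP22, a protein of compact peripheral myelin, differed by 0.12 (SE 0.34, adjusted p = 0.833).

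The axonal side of the myelin sheath gave values in both directions. Of 19 expressed probe sets of node and paranode genes, 5 were higher in glaucoma and 2 were lower (against 7.58% and 9.4% of all expressed probe sets). KCNA2, a potassium channel beside the paranode, was lower (-1.34, SE 0.14, adjusted p = 0.000166), as was SPTBN4, the spectrin of the node (-0.67, SE 0.11, adjusted p = 0.00248). The adhesion molecules NRCAM (0.86, SE 0.16, adjusted p = 0.00528) and CNTN1 (0.96, SE 0.23, adjusted p = 0.0165) were higher. These are the probe sets with the smallest adjusted p of each gene, and those below the minimum differed less. There KCNA2 differed by 0.11 (SE 0.10) and -0.24 (SE 0.09), SPTBN4 by 0.02 (SE 0.13) and NRCAM by 0.09 to 0.19. Of 21 expressed probe sets of ganglion cell and axon genes, 12 were lower and 1 was higher (against 9.4% and 7.58% of all expressed probe sets). The higher one was of SNCG, gamma-synuclein (2.52, SE 0.27, adjusted p = 0.000195 from limma), which the study listed as lower on another probe set. THY1 did not pass (0.70, SE 0.52, adjusted p = 0.381). NEFL, the light neurofilament of axons, was at 8.05, 9.51, 10.66, 8.33 and 6.42 in glaucomatous retinas 1 to 5, against 12.22 to 12.99 in healthy retinas (difference -4.02, SE 0.63, adjusted p = 0.00169).

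Markers of astrocytes and optic nerve head glia were set beside these results. Some of them, GFAP and AQP4 among them, are also made by glia within the retina. The list as a whole therefore cannot measure optic nerve head tissue. The astrocyte and optic nerve head glia list had 15 expressed probe sets, of which 7 were higher in glaucoma and none was lower in limma (0 also at an unadjusted p under 0.05). The shares over all expressed probe sets were 7.58% higher and 9.4% lower. The sum of their intensities was 26405 to 35975 in glaucoma and 21799 to 27758 in healthy retinas. GFAP, the filament of astrocytes and of reactive Müller glia, was at 6.88 to 9.31 in glaucoma and 5.44 to 5.96 in healthy retinas (difference 2.46, SE 0.40, adjusted p = 0.00228), and AQP4, the water channel of the same cells, differed by 1.81 (SE 0.28, adjusted p = 0.00149). PAX2, a factor of optic nerve head astrocytes, was below the minimum in all retinas, at 5.48 to 5.93 in glaucoma and 5.37 to 5.66 in healthy retinas. Over the 10 dogs, with group means subtracted, MAL and the mean of this list had r = -0.05 (0.02 without the 5-year-old Shiba Inu and healthy Beagle 4).

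Markers of other cells that express MAL were also measured. Of 18 T cell probe sets, 15 were below the minimum. Of the 3 expressed, 2 were higher in glaucoma (against 7.58% of all expressed probe sets), CD2 (0.74, SE 0.14, adjusted p = 0.00578) and CD3E (0.42, SE 0.12, adjusted p = 0.0357). The sum of the 3 intensities was 336 to 510.2 in glaucoma and 296 to 354 in healthy retinas. In a limma fit without the minimum, both CD3D probe sets (1.09 and 0.60, adjusted p = 0.0174 and 0.0487) and another of CD2 (1.02, adjusted p = 0.0477) were higher. They were named after their values were seen, and the others below the minimum did not pass. CD3E, a chain of the T cell receptor complex, lay at 6.84 to 7.37 in glaucoma and 6.47 to 6.76 in healthy retinas, and lost its call when any 1 of healthy Beagles 2 to 5 was left out (adjusted p up to 0.183 over the alternatives). In sections of glaucomatous retinas the study saw no cells labelled for the proteins CD3 or CD79, apart from occasional CD3-positive cells around vessels. It proposes that entry of leukocytes into the retina is rare at most. MAL and the mean of the T cell probe sets had r = 0.54 over the 10 dogs with group means subtracted (0.62 without the 5-year-old Shiba Inu and healthy Beagle 4). Of 6 expressed epithelial probe sets none was higher or lower in limma over all dogs (0 of 6, with 2 higher at an unadjusted p under 0.05). Their summed intensities were 2645 to 8322 in glaucoma and 1321 to 4347 in healthy retinas, and r with MAL was -0.19 (-0.10 without these 2 dogs). Without these 2 dogs the sums were 2645 to 3434 in glaucoma and 1321 to 1998 in healthy retinas. KRT18, a keratin, was then higher in glaucoma (2.12, SE 0.46, adjusted p = 0.0158 from limma). EPCAM passed only without the Dalmatian, and KRT8 passed under no alternative. Of 7 expressed fibroblast and sheath probe sets, 3 were higher (against 7.58% of all expressed probe sets), with MFAP5, a protein of elastic microfibrils, at a difference of 1.15 (SE 0.11, adjusted p = 0.000112). Their summed intensities were 15425 to 20107 in glaucoma and 7769 to 9357 in healthy retinas, and r with MAL was 0.32 (0.53 without these 2 dogs). Other genes of this list, named after their values were seen, went the other way below the minimum, and in a fit without it POSTN, periostin (-0.86, SE 0.13, adjusted p = 0.00209), and 1 probe set of LUM, lumican (-1.37, SE 0.30, adjusted p = 0.0151), were lower in glaucoma. The median difference of the list was 0.65 over its 7 expressed probe sets and 0.10 over all 31. The part of optic nerve head tissue, T cells, epithelium and sheath in the MAL signal was not tested.

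RNA quality was compared through actin and GAPDH control probe sets at the 3' and 5' ends of these transcripts, whose log2 ratio (3' over 5') is larger in degraded RNA. Over 4 pairs it was 1.73 ± 0.22 in glaucoma and 1.74 ± 0.30 in healthy retinas, and over the 2 pairs of 1 control family, picked after the values were seen, 0.94 ± 0.14 in glaucoma and 1.19 ± 0.22 in healthy retinas (SD, n = 5 each). With these ratios as a covariate the difference of MAL was 3.30 (SE 0.37) and 3.22 (SE 0.46), and that of ERMN was 0.83 (SE 0.71) and 0.49 (SE 0.88). With the ratio of 1 family, the calls of CMTM7 (adjusted p = 0.0503), SERPINF1 (0.059), NRCAM (0.0652), CD2 (0.0715), CDH13 (0.0659), CYBB (0.0702), PDGFRA (0.0734), GLDN (0.0769), GSN (0.109), CNTN1 (0.175), CD3E (0.183) and MITF (0.296) did not pass, and with the ratio over 4 pairs they did.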

How the data were processed

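Neural retina of 5 dogs with glaucoma and 5 healthy Beagles was hybridised to Affymetrix Canine Genome 2.0 arrays, 1 per dog. The deposited intensity values had been normalized with RMA by the authors and were on a linear scale. Their log2 was taken, and 111 control probe sets were left out. Of 42924 probe sets, the 18416 above a log2 value of 7 in at least 2 samples were fitted with limma 3.58.1 (R 4.3.3) and adjusted over all of them. SEs of probe sets below this minimum come from a fit of all probe sets. The annotation gave 1 symbol to 29254 probe sets, several to 439 and none to 13231.

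The members and the gene lists were chosen with earlier results of these data known. From each other list the genes with the 4 smallest adjusted p and a fixed set of defining markers could be named, besides the 10 genes most like MAL and the expressed sheath genes. ERMN as a profile, the omission of 2 dogs together and the ratio of 1 control family were added after the data were seen. Alternatives were other filters, normalizations, tests and covariates, and each dog or breed left out. The limma step was tested on simulated data. Arrays have no read depth, and their number limits the precision.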

Additional observations from a re-analysis of the deposited data

Results flagged for a closer look

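In 130 sets of 5 dogs (65 probe sets in each group), 17 had 1 dog far from the other 4 by Dixon's criterion, which chance alone meets in about 1 in 20. Among the listed genes, ERMN was high in glaucoma replicate 1, the 5-year-old Shiba Inu (9.93), and CNP was low in healthy replicate 5 (6.01). The 5-year-old Shiba Inu was also high in ENPP2 (10.21), APCDD1 (8.48), PMP22 (8.56), CNTN1 (8.28), PMEL (12.57), SLC45A2 (7.59) and TYR (10.39). Healthy Beagle 4 was high in APCDD1 (7.25), PMEL (10.72), DCT (10.54), SLC45A2 (7.10), TYR (8.65), KRT18 (10.69) and KRT8 (8.21). GSN was low in the 5-year-old Basset Hound (6.77). All values are log2 intensities.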

How the results depend on the processing

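MAL kept its direction under 20 alternatives, at 2.997 to 3.59. The exact rank sum test, whose smallest adjusted p was 0.0534, called 0 probe sets (at an unadjusted p under 0.05 it gave 2171 higher and 2669 lower) and so 0 members. Array weights gave 2095 higher and 2811 lower probe sets. Age as a covariate (label ages) gave 886 lower, and the 3' to 5' ratio of 1 control family, added after the data were seen, gave 408 higher and 522 lower, while the planned ratio over 4 pairs moved no count by over 1.5 times. The replicate block gave 943 higher and 1114 lower. Same-numbered dogs deviated together at r = -0.24 to 0.07, so the numbers do not pair them. With 1 dog left out, 866 to 1606 probe sets were higher and 1111 to 2127 lower, with the fewest without healthy Beagle 2 (866 and 1111), and 919 were higher without the Dalmatian. Members higher stayed at 1. In the wider myelin list the count higher was 5 without the minimum on expression (GSN and KLK6), 0 with the ratio of 1 family (3 at an unadjusted p under 0.05), 0 in the rank sum test (5 unadjusted), 6 without the 5-year-old Shiba Inu and healthy Beagle 4, and 2 to 5 with 1 dog left out (5 without the 14-year-old Shiba Inu and 5 without healthy Beagle 4). The count lower was 1 without the minimum (ZNF488) and 0 to 1 with 1 dog left out (SLC44A1, without the 5-year-old Basset Hound). The causes were not tested.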
